A study of Mus musculus with 11 samples.

Results

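The genes described here are 9 named members of the killing machinery of cytotoxic lymphocytes, chosen by symbol: the granzymes Gzma, Gzmb and Gzmc, the pore-forming protein gene Prf1, the granule genes Nkg7 and Ctsw, the protease inhibitors Serpinb6b and Serpinb9, and the cytokine gene Ifng. All 9 were found among the 55870 gene identifiers of the count tables. RNA was measured in sorted mouse thymocytes lacking surface CD24 and TCRb, 11 libraries in 2 tables. The Bcl11b table came from newborns (postnatal day 0) and held 2 libraries each of Bcl11b D/N440K, Bcl11b +/N440K and Bcl11b +/+. N440K names a changed residue of the transcription factor Bcl11b, and the labels do not say what the allele D is. The Tcf7 table came from mice at postnatal day 7 and held 3 libraries labelled Tcf7 F/F:Vav1-Cre and 2 of Tcf7 +/+. F/F stands for floxed alleles of the transcription factor gene Tcf7, and Vav1-Cre is a recombinase driven in blood cells from the stem cell stage onward, so it is not limited to thymocytes. The labels do not say whether replicates were separate animals or pools of animals, so p-values measure the spread between these libraries, which may be technical.

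Cytotoxic granules are secretory lysosomes of natural killer (NK) cells, killer T cells and some innate lymphoid cells. Perforin opens the membrane of the target cell, and granzymes, which are serine proteases, enter and start cell death. The cell that carries them keeps serpins of clade B in its cytosol, which bind granzymes that leak from granules. Interferon gamma, the product of Ifng, is secreted by the same cells but travels outside granules and acts through its own receptor. In the thymus, Bcl11b and Tcf7 are known as factors that set up the T cell program and, in the case of Bcl11b, hold NK-type genes in check.

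In D/N440K all 8 members that could be tested were higher than in Bcl11b +/+, with ratios of group means from 1.41 for Nkg7 and Ctsw to 2.74 for Gzmc. In +/N440K 7 of the 8 were higher, by 1.31-fold for Nkg7 to 2.13-fold for Gzma, and Prf1 did not pass the test. Of all tested genes, 6.10% were called higher in D/N440K and 4.79% in +/N440K. DESeq2 called 3 members higher in +/N440K. Ifng had too few counts to be tested in these newborn libraries. In libraries labelled Tcf7 F/F:Vav1-Cre the set came apart: Gzmb was higher, Gzma and Prf1 did not pass the test, and Gzmc, Nkg7, Ctsw, both serpins and Ifng were lower. There 12.0% of all tested genes were called higher and 11.1% lower. The plot of levels by library shows both patterns.

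**Figure D1:**
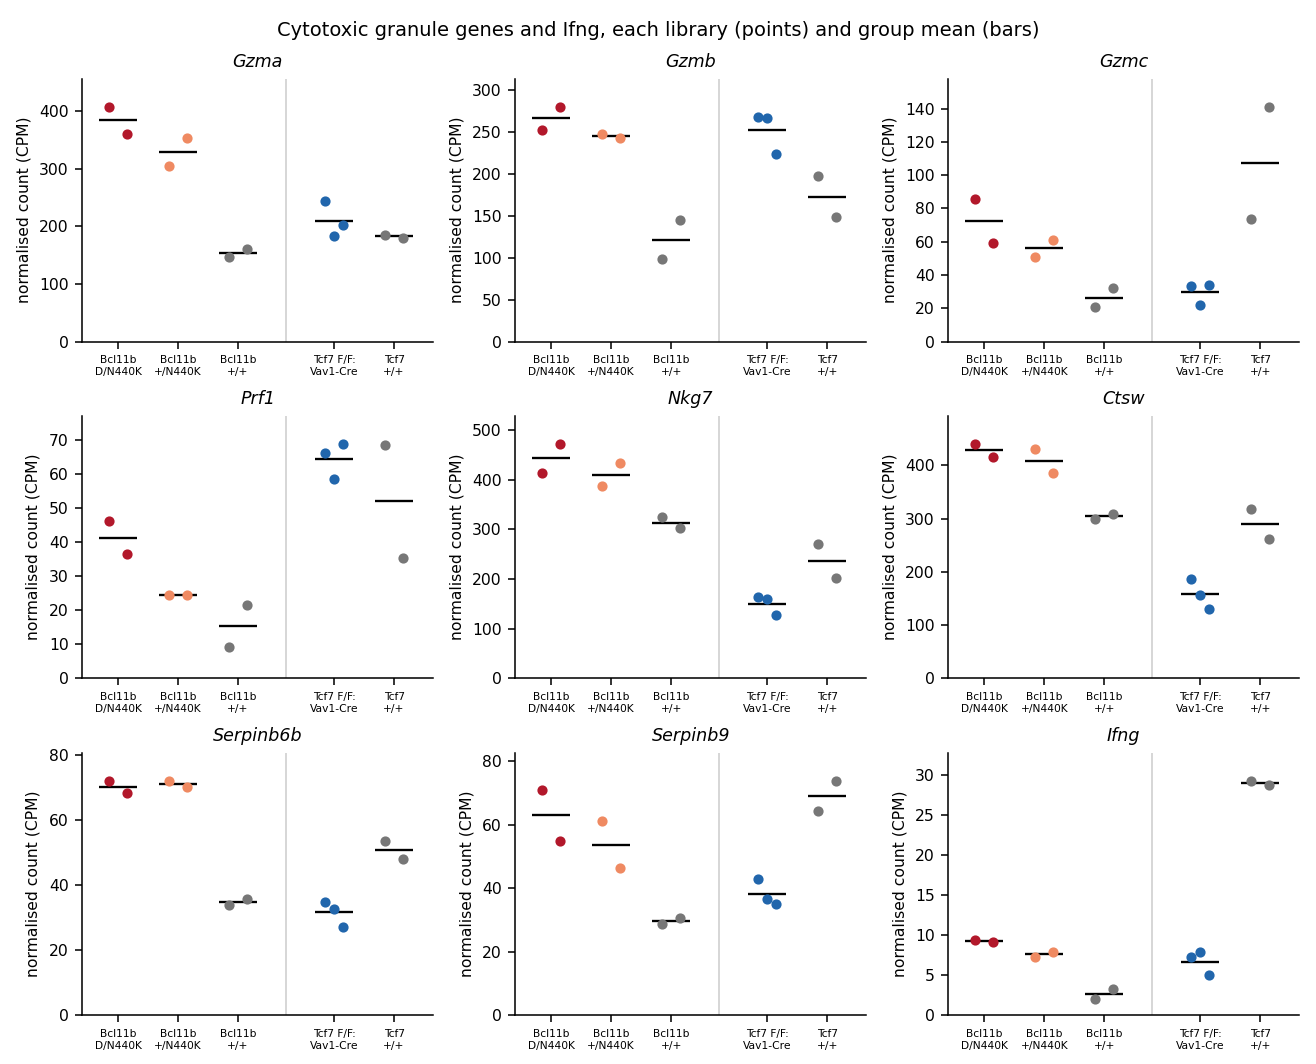
Normalised counts (CPM, linear axis from 0) of each of the 9 genes in every library (points) with the group mean (bar), Bcl11b table left and Tcf7 table right of the grey line in each panel. All 9 genes have both D/N440K and both +/N440K libraries above both Bcl11b +/+ libraries, while Gzmc, Nkg7, Ctsw, Serpinb6b, Serpinb9 and Ifng have all 3 Tcf7 F/F:Vav1-Cre libraries below both Tcf7 +/+ libraries. Of all tested genes, 25.3% (D/N440K), 24.0% (+/N440K) and 24.1% (F/F:Vav1-Cre) show these orders.

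The start regions of the 3 granzyme genes are shown because they share the letters TGTGGTT. These exact letters were not found in the windows of the other 5 members that have a promoter entry (Ctsw has none). Sequences are from RefSeq, run 5′ to 3′ along the gene's strand, and cover 250 bases before to 50 bases after the start site. Capitals mark motif matches.
Gzma (GRCm38.p6 chr13:113100932-113101231, minus strand): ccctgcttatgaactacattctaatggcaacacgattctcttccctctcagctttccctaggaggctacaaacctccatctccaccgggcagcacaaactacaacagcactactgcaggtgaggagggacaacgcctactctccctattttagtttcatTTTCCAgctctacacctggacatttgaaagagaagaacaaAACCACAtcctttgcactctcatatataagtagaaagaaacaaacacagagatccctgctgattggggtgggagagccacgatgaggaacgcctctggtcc
Gzmb (GRCm38.p6 chr14:56262285-56262584, minus strand): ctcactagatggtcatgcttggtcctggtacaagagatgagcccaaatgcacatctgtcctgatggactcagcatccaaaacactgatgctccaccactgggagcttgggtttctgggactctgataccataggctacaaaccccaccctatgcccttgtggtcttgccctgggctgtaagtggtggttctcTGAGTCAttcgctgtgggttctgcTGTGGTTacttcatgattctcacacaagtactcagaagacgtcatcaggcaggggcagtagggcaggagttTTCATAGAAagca
Gzmc (GRCm38.p6 chr14:56234608-56234907, minus strand): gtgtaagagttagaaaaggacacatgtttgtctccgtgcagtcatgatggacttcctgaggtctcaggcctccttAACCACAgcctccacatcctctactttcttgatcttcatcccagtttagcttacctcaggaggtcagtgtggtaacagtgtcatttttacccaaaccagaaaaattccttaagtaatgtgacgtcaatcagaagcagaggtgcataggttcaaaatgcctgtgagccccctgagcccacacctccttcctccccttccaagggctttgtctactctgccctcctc
The letters in common, TGTGGTT, were searched as a Runx factor site, on both strands like all motifs here. Without the last base, TGTGGT also lies on either strand in the windows of Prf1, Nkg7 and Serpinb9. The shorter letters are thus not limited to the granzymes. Counted from the start site, TGTGGTT lay at -51 to -45 in Gzma on the opposite strand (printed as AACCACA), at -34 to -28 in Gzmb, and at -175 to -169 in Gzmc on the opposite strand. It was found in 3 of 8 member promoters, and 5.27% of all 32851 promoters of the same length hold it. The other capitals are an NFAT match in Gzma (TGGAAA, printed as TTTCCA), and in Gzmb an AP-1 match (TGACTCA, printed as TGAGTCA) and a STAT match (TTCNNNGAA). Matches to STAT letters were also present in Nkg7 and Ifng (3 of 8 members, against 8.3% of all promoters). NFAT letters were in Gzma and Serpinb9 (21.4% of all promoters), the E-box CAGCTG in Prf1 and Ifng (16.3%), AP-1 letters in Gzmb alone (5.2%) and the T-box letters GGTGTGA in Nkg7 alone (3.98%). The Ets letters ACAGGAA and the Tcf/Lef letters CTTTGAA were found in 0 of 8 windows, against 8.67% and 5.14% of all promoters. No 2 of these motifs overlapped in the 3 windows shown, and a match of letters is not a bound site.

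Total counts were 999381 to 1246272 per library in the Bcl11b table and 1273997 to 1842717 in the Tcf7 table. Bcl11b itself fell in both mutant genotypes, with 152 and 204 CPM in D/N440K and 185 and 225 CPM in +/N440K, against 641 and 506 CPM in Bcl11b +/+. Tcf7 was not lower in libraries labelled Tcf7 F/F:Vav1-Cre (847, 658 and 694 CPM, against 552 and 594 CPM in Tcf7 +/+), and counts over all exons do not show whether a part of the gene was deleted. The 2 Tcf7 +/+ libraries differed from each other more than any other replicate pair (chi-square per degree of freedom 4.94, against 1.14 to 2.16 in the others). Of the sort markers, Cd24a was at most 12.5 CPM in every library, and Trbc2, a constant region of the TCR beta chain, was at 101 to 205 CPM. Erythroid transcripts summed to 83.1 to 108 CPM in D/N440K, 1.97 to 18.0 CPM in +/N440K and 9.96 to 47.1 CPM in Bcl11b +/+.

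Gzma encodes a tryptase-type granzyme (chromosome 13, 113093825 to 113100981, minus strand, GRCm38 as all coordinates here). It had 408 and 361 CPM in D/N440K and 304 and 353 CPM in +/N440K, against 147 and 161 CPM in Bcl11b +/+. Both mutant groups lay well above the wild-type pair, and the D/N440K pair lay just above the +/N440K pair. The log2 fold change against Bcl11b +/+ was 1.32 ± 0.106 in D/N440K (SE, edgeR adjusted p = 1.846e-12) and 1.08 ± 0.109 in +/N440K (edgeR adjusted p = 1.123e-09).

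Gzmb, the granzyme that cleaves after aspartate and activates caspases, lies on chromosome 14 (56258838 to 56262260, minus strand). Its levels were 253 and 279.9 CPM in D/N440K and 248 and 243 CPM in +/N440K, against 98.2 and 144 CPM in Bcl11b +/+. The 4 mutant libraries were close to each other and the wild-type pair was lower and wider. It rose by 1.11 ± 0.125 in D/N440K (edgeR adjusted p = 8.64e-09) and by 0.99 ± 0.126 in +/N440K (edgeR adjusted p = 1.882e-07), both on the log2 scale.

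Gzmc is a granzyme of the same chromosome (14, 56231441 to 56234656, minus strand), best known from strongly activated mouse killer cells. It had 85.6 and 59.0 CPM in D/N440K and 50.6 and 61.2 CPM in +/N440K, against 20.5 and 32.4 CPM in Bcl11b +/+. The mutant groups overlapped each other and not the wild type. Its log2 rise was 1.44 ± 0.230 in D/N440K (edgeR adjusted p = 1.022e-05) and 1.04 ± 0.243 in +/N440K (edgeR adjusted p = 0.002569). With DESeq2 the +/N440K call was lost (DESeq2 adjusted p = 0.1424), as it was when Bcl11b +/+ replicate 1 was left out (0.78, edgeR adjusted p = 0.06725). Of the 50-base words of its exons, 4.14% also occur in Gzme or Gzmd, and both of those genes had 0 counts in all 11 libraries.

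Prf1 (chromosome 10, 61297833 to 61304680, plus strand) encodes perforin, without which granzymes do not reach the cytosol of the target. Levels were 46.2 and 36.6 CPM in D/N440K and 24.5 and 24.7 CPM in +/N440K, against 9.21 and 21.6 CPM in Bcl11b +/+. The 3 genotypes did not overlap, and the wild-type pair was more than 2-fold apart. Prf1 rose in D/N440K (1.38 ± 0.299, edgeR adjusted p = 0.0007822). In +/N440K its log2 fold change of 0.62 ± 0.332 did not pass (edgeR adjusted p = 0.2992). That value stood at 1.40 without Bcl11b +/+ replicate 2 (edgeR adjusted p = 0.0494), and the D/N440K call was lost with DESeq2 (DESeq2 adjusted p = 0.1055).

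Nkg7 (chromosome 7, 43437073 to 43438249, plus strand) is a membrane protein of cytotoxic granules that aids their release. It had 414 and 472 CPM in D/N440K and 388 and 433 CPM in +/N440K, against 324 and 302 CPM in Bcl11b +/+. Ctsw (chromosome 19, 5465043 to 5468507, minus strand) is a cysteine protease of NK cells and CD8 T cells. It had 440.2 and 416 CPM in D/N440K and 431 and 386 CPM in +/N440K, against 299.7 and 309 CPM in Bcl11b +/+. Both genes were abundant in the wild type, and in neither did mutant and wild-type libraries overlap. Nkg7 rose by 0.50 ± 0.0910 in D/N440K (edgeR adjusted p = 8.077e-05) and by 0.39 ± 0.0915 in +/N440K (edgeR adjusted p = 0.002769), and Ctsw rose by 0.49 ± 0.0887 and 0.43 ± 0.0888 in the same comparisons (edgeR adjusted p = 6.424e-05 and 0.0006565). With DESeq2 the +/N440K call of Nkg7 was lost (DESeq2 adjusted p = 0.09369), as it was when Bcl11b +/+ replicate 2 was left out (edgeR adjusted p = 0.06986). Ctsw shares 9 exon bases with Fibp on the other strand, and whether counting used strand is not given.

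The serpins stand on chromosome 13, Serpinb6b at 32965209 to 32979067 and Serpinb9 at 33003250 to 33017957, both on the plus strand. In mice Serpinb6b is known to inhibit granzyme A, and Serpinb9 is the inhibitor of granzyme B. Serpinb6b had 71.9 and 68.2 CPM in D/N440K and 71.8 and 70.1 CPM in +/N440K, against 33.8 and 35.7 CPM in Bcl11b +/+. Serpinb9 had 71.1 and 55.0 CPM in D/N440K and 61.2 and 46.4 CPM in +/N440K, against 28.6 and 30.7 CPM in Bcl11b +/+. For both, the mutant genotypes overlapped each other and lay above the wild type. Serpinb6b rose by 1.01 ± 0.196 in D/N440K (edgeR adjusted p = 0.0001922) and by 1.03 ± 0.194 in +/N440K (edgeR adjusted p = 0.0001828). Serpinb9 rose by 1.09 ± 0.221 (edgeR adjusted p = 0.0003443) and 0.87 ± 0.227 (edgeR adjusted p = 0.007677). With DESeq2 the +/N440K calls of both were lost (DESeq2 adjusted p = 0.05732 for Serpinb6b and 0.3537 for Serpinb9), as was the D/N440K call of Serpinb9 (DESeq2 adjusted p = 0.06716). The Serpinb9 call in +/N440K was also lost without Bcl11b +/+ replicate 1 (edgeR adjusted p = 0.05104) and without +/N440K replicate 1 (edgeR adjusted p = 0.1654). Serpinb6b shares 2.92% of its 50-base words with other genes, Serpinb6a and Serpinb6c among them, and Serpinb9 shares 0.378% with Serpinb9b.

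Ifng (chromosome 10, 118441046 to 118445892, plus strand) was scarce in newborn thymocytes. It had 11 and 9 counts in D/N440K and 9 and 8 counts in +/N440K, against 2 and 4 counts in Bcl11b +/+, which is 9.42 and 9.16, 7.34 and 7.90, and 2.05 and 3.32 CPM. The mutant libraries were all above the wild-type pair. The gene stayed below the count filter there and was not tested in the fit. Summed over libraries and scaled for depth, the ratio to Bcl11b +/+ was 3.38 in D/N440K (95% interval 1.31 to 10.3, counting error only) and 2.76 in +/N440K (1.04 to 8.55). In a fit without the filter it did not pass (log2 fold change 1.73 ± 0.606, edgeR adjusted p = 0.06284 in D/N440K, and 1.44 ± 0.630, edgeR adjusted p = 0.2493 in +/N440K). Its exons share 336 bases with Gm49751 on the same strand, so some reads may be shared with that gene.

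Counted over the 9 members, 8 were called higher in D/N440K and 1 was not tested, where 6.10% of the 10910 tested genes were called higher and 6.31% lower. In +/N440K 7 were called higher, Prf1 was not called and Ifng was not tested, where 4.79% of tested genes were called higher and 5.30% lower. DESeq2 called 3 of them in +/N440K, Gzma, Gzmb and Ctsw. All 9 members had both mutant libraries above both wild-type libraries in each comparison, a pattern seen in 25.3% of tested genes for D/N440K and 24.0% for +/N440K. The median log2 fold change of the 8 tested members was 1.10 in D/N440K and 0.93 in +/N440K, where the median of all tested genes was 0.00 in each. The 2 comparisons share the Bcl11b +/+ libraries. Summed over Gzma, Gzmb and Gzmc, granzyme levels were 746 and 700.2 CPM in D/N440K and 603 and 657 CPM in +/N440K, against 266 and 338 CPM in Bcl11b +/+. In bulk RNA, more cells of a cytotoxic type and more RNA per cell cannot be told apart. Markers of NK cells and type 1 innate lymphoid cells (14 genes, Ncr1 and Klrb1c among them) summed to 4118 to 4237 CPM in D/N440K and 3782 to 3954 CPM in +/N440K, against 2469 to 2527 CPM in Bcl11b +/+, and 14 and 13 of the 14 were called higher. None of the 14 was at 0 in any group. Il2rb was the largest part of these sums (means of 2071 CPM in D/N440K, 2032 CPM in +/N440K and 1507 CPM in Bcl11b +/+). The part of these markers in the rise of the members was not tested. Macrophage markers summed to 293 to 298 CPM in D/N440K and 212 to 216 CPM in +/N440K, against 108 to 156 CPM in Bcl11b +/+, with 2 of 3 tested called higher in D/N440K (Lyz2 and Csf1r) and 1 of 3 in +/N440K (Lyz2), and C1qa at 0 in all 3 genotypes. Of the 2 tested neutrophil markers S100a8 was called higher in each (2.56 in D/N440K and 2.96 in +/N440K), with S100a9 and Elane at 0 throughout. Plasmacytoid dendritic cell markers summed to 279.9 to 375 CPM in D/N440K and 297 to 365 CPM in +/N440K, against 864 to 923 CPM in Bcl11b +/+, and 3 of 5 were called lower in each. Most of the Bcl11b +/+ sum was Ccr9 (mean 535 CPM, against 62.5 CPM in D/N440K and 86.1 CPM in +/N440K). The means of Siglech were 75.0, 75.4 and 112 CPM in D/N440K, +/N440K and Bcl11b +/+, and those of Bst2 were 73.0, 65.3 and 84.0 CPM. Markers of mature CD8 T cells were lower too, with 7 of 7 called lower in D/N440K and 6 of 7 in +/N440K. Of 5 gamma-delta T cell markers, 5 were called lower in D/N440K and 4 in +/N440K, with sums of 408 to 420 CPM in D/N440K and 600.1 to 618 CPM in +/N440K, against 1499 to 1709 CPM in Bcl11b +/+. The part of these cell types in the result was not tested either.

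**Figure D2:**
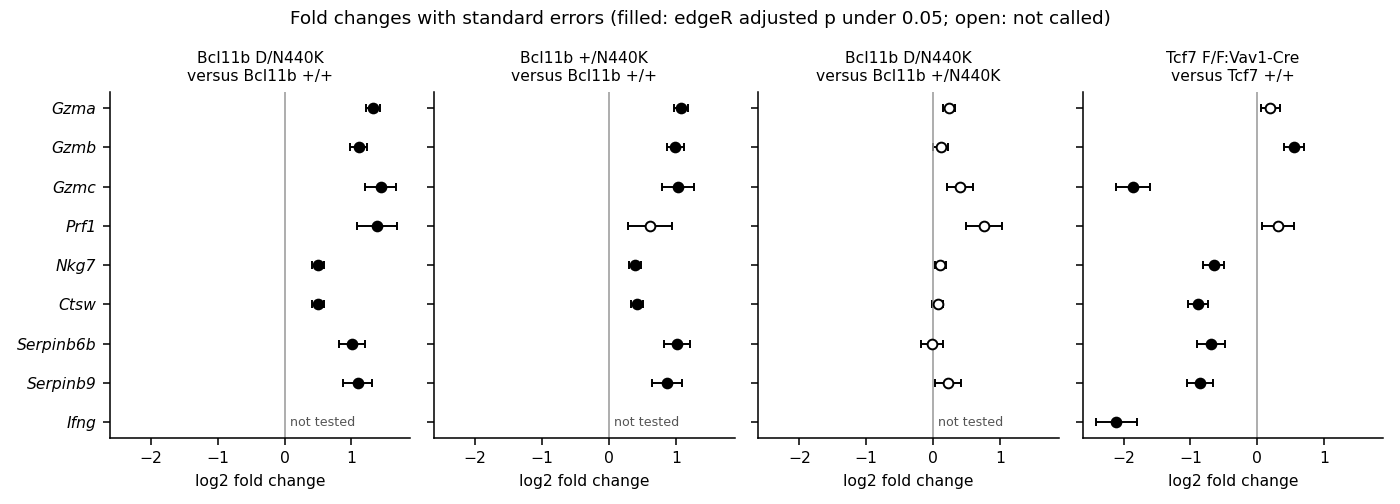
Log2 fold changes (points) with standard errors (bars) of the 9 genes from edgeR in 4 comparisons, filled where the adjusted p was under 0.05. Against Bcl11b +/+ all tested genes lie right of 0, between 0.39 and 1.44, while in the Tcf7 comparison they spread from -2.11 for Ifng to 0.54 for Gzmb.

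The 2 mutant genotypes were also set against each other. None of the 8 tested members was called between D/N440K and +/N440K (edgeR), where 0.532% of tested genes were called, and 3 had an unadjusted p under 0.05. Those 3 were Prf1 (0.76 ± 0.271, unadjusted p = 0.007412, edgeR adjusted p = 0.2942), Gzma (0.24 ± 0.0932, edgeR adjusted p = 0.4157) and Gzmc (0.40 ± 0.196, edgeR adjusted p = 0.6279). DESeq2 also called 0 members. Gzma, Gzmb, Prf1 and Ifng had both D/N440K libraries above both +/N440K libraries, an order seen in 17.8% of tested genes. For Ifng the count ratio between the genotypes was 1.22 (95% interval 0.609 to 2.49). Serpinb6b was nearly equal in the 2 genotypes (-0.02 ± 0.167).

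In the Tcf7 table the granzymes parted. Gzmb had 268, 267 and 224 CPM in libraries labelled Tcf7 F/F:Vav1-Cre, against 197 and 149 CPM in Tcf7 +/+, with no overlap. Its log2 fold change was 0.54 ± 0.150 (edgeR adjusted p = 0.01373). The call was lost without Tcf7 +/+ replicate 2 (0.35, edgeR adjusted p = 0.05878), without F/F:Vav1-Cre replicate 1 or 2 (edgeR adjusted p = 0.07914 and 0.07555) and without the count filter (edgeR adjusted p = 0.09047). Gzma had 243, 183 and 203 CPM in F/F:Vav1-Cre, against 185 and 179.8 CPM in Tcf7 +/+. These groups overlapped, and its fold change of 0.19 ± 0.144 did not pass (edgeR adjusted p = 0.3712). Gzmc had 33.2, 22.0 and 33.9 CPM in F/F:Vav1-Cre, against 73.8 and 141 CPM in Tcf7 +/+. All 3 F/F:Vav1-Cre libraries were below both controls, and the controls were almost 2-fold apart. Its log2 fold change was -1.86 ± 0.259 (edgeR adjusted p = 4.719e-05).

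Perforin, like Gzma, did not pass the test. Prf1 had 66.3, 58.8 and 69.0 CPM in F/F:Vav1-Cre, against 68.7 and 35.5 CPM in Tcf7 +/+, where the controls spanned most of the range. Its fold change of 0.31 ± 0.237 did not pass (edgeR adjusted p = 0.385). The value turned on the control kept: it was -0.09 without Tcf7 +/+ replicate 2 (edgeR adjusted p = 0.8307) and 0.86 without Tcf7 +/+ replicate 1 (edgeR adjusted p = 0.002227).

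The other granule genes fell. Nkg7 had 164, 159 and 129 CPM in F/F:Vav1-Cre, against 270.5 and 202 CPM in Tcf7 +/+ (-0.65 ± 0.155, edgeR adjusted p = 0.005223). Ctsw had 187, 157 and 130.2 CPM in F/F:Vav1-Cre, against 318 and 262 CPM in Tcf7 +/+ (-0.88 ± 0.153, edgeR adjusted p = 0.000385). Neither gene's groups overlapped. The Nkg7 call was lost without F/F:Vav1-Cre replicate 3 (edgeR adjusted p = 0.05695) and without the count filter (edgeR adjusted p = 0.05301).

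Both serpins were lower as well. Serpinb6b had 34.8, 32.8 and 27.3 CPM in F/F:Vav1-Cre, against 53.5 and 47.9 CPM in Tcf7 +/+ (-0.69 ± 0.208, edgeR adjusted p = 0.02304). Serpinb9 had 42.9, 36.7 and 35.0 CPM in F/F:Vav1-Cre, against 64.2 and 73.8 CPM in Tcf7 +/+ (-0.86 ± 0.195, edgeR adjusted p = 0.003641). The groups did not overlap for either inhibitor. With DESeq2 the Serpinb6b call was lost (DESeq2 adjusted p = 0.1284), as it was without F/F:Vav1-Cre replicate 2 or 3 (edgeR adjusted p = 0.07141 and 0.1214) and without the count filter (edgeR adjusted p = 0.07195).

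Ifng showed the largest change of the 9 in this comparison. It had 7.28, 7.91 and 5.01 CPM in F/F:Vav1-Cre (9, 14 and 9 counts), against 29.3 and 28.7 CPM in Tcf7 +/+ (52 and 51 counts). The controls were close to each other and about 4-fold above the F/F:Vav1-Cre libraries. Its log2 fold change was -2.11 ± 0.302 (edgeR adjusted p = 6.158e-05).

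In all, 1 member was called higher, 6 lower and 2 not called in libraries labelled Tcf7 F/F:Vav1-Cre, where 12.0% of the 12366 tested genes were called higher and 11.1% lower. The same 6 and 1 members had groups without overlap, which 24.1% of tested genes showed downward and 24.7% upward. The median of the 9 log2 fold changes was -0.69, and that of all tested genes was -0.01. Of the 14 NK and type 1 innate lymphoid markers 10 were called lower and 1 higher, and they summed to 1650 to 1904 CPM in F/F:Vav1-Cre, against 2011 to 2353 CPM in Tcf7 +/+. Il2rb was the largest part of these sums, at 867 to 1060 CPM in F/F:Vav1-Cre and 811 to 950 CPM in Tcf7 +/+, with overlap. The median log2 fold change of the 14 was -1.32, and 3 of them were above 0. Of the mast cell and basophil markers 5 of 6 tested were called higher, with sums of 429 to 462 CPM in F/F:Vav1-Cre, against 77.8 to 85.1 CPM in Tcf7 +/+. Most of that sum was Kit, which progenitors also express (347 ± 19.7 CPM in F/F:Vav1-Cre, n = 3, against 59.2 ± 3.20 CPM in Tcf7 +/+, n = 2). The mast cell and basophil proteases Mcpt4, Tpsb2 and Prss34 were at 0 in Tcf7 +/+ and also in at least 1 F/F:Vav1-Cre library, where their means were 5.66, 11.2 and 6.22 CPM. Macrophage markers summed to 1175 to 1332 CPM in F/F:Vav1-Cre, against 476 to 893 CPM in Tcf7 +/+, and 2 of 6 were called higher. Markers of mature CD8 T cells summed to 277 to 316 CPM in F/F:Vav1-Cre, against 615 to 628 CPM in Tcf7 +/+, with 5 of 7 called lower and 1 higher. Gamma-delta T cell markers summed to 660.4 to 695 CPM in F/F:Vav1-Cre, against 1304 to 1475 CPM in Tcf7 +/+, with 3 of 5 called lower, and plasmacytoid dendritic cell markers to 930.0 to 1085 CPM in F/F:Vav1-Cre, against 1235 to 1605 CPM in Tcf7 +/+, with 2 of 5 called lower. B lineage markers summed to 43.5 to 56.6 CPM in F/F:Vav1-Cre, against 150.5 to 158 CPM in Tcf7 +/+. The part of these cell types in the members' changes was not tested.

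Whether the 2 genetic changes act differently on a member was tested as the difference of the D/N440K effect and the F/F:Vav1-Cre effect, in 1 edgeR model over 11 libraries. Each effect was taken within its own table, but the tables differ in age, and effects of genotype, age and table cannot be told apart. The model also pools the spread of both tables, though their biological coefficients of variation were unlike (0.0445 for Bcl11b and 0.122 for Tcf7 libraries). Its SE and p-values may be off for that reason. The difference was past the threshold for 7 of 9 members, all in the direction of a higher D/N440K effect, where 5.66% of 12249 tested genes were called in that direction and 5.83% in the other. It was 3.83 ± 0.645 for Ifng (edgeR adjusted p = 0.0001213), 3.30 ± 0.400 for Gzmc (edgeR adjusted p = 1.377e-06), 1.95 ± 0.297 for Serpinb9, 1.70 ± 0.281 for Serpinb6b, 1.38 ± 0.185 for Ctsw, 1.16 ± 0.191 for Nkg7 and 1.13 ± 0.188 for Gzma. Ifng failed the count filter of the Bcl11b table and passed it only with the Tcf7 libraries added. Those hold its highest counts (52 and 51 in Tcf7 +/+), so its value is a description only. For Gzmb (0.57 ± 0.217, edgeR adjusted p = 0.09169) and Prf1 (1.08 ± 0.428, edgeR adjusted p = 0.1103) the difference did not pass. Both passed without the count filter (edgeR adjusted p = 0.02013 for Gzmb and 0.04278 for Prf1). Leaving out 1 library at a time moved the difference both ways, from 0.33 to 0.90 for Gzmb and from 0.49 to 1.87 for Prf1. Both were highest without Bcl11b +/+ replicate 2.

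**Figure D3:**
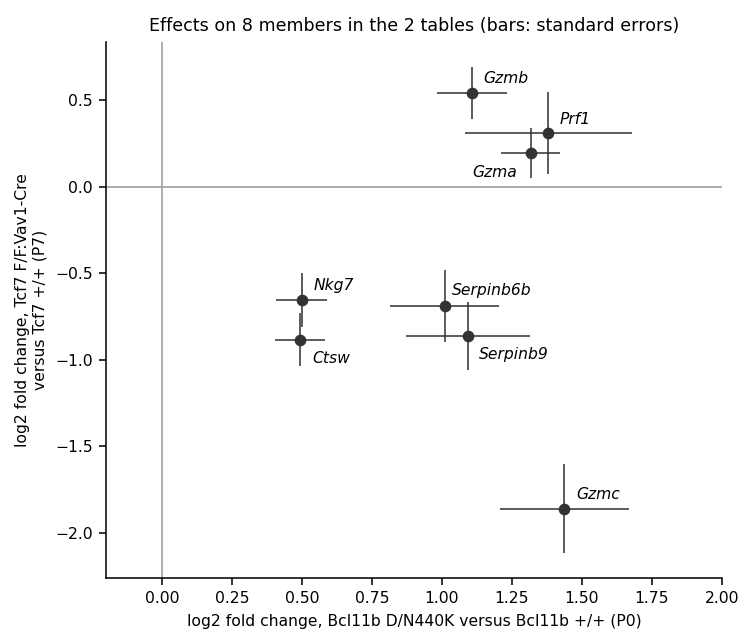
Log2 fold change in D/N440K against Bcl11b +/+ (horizontal axis) and in Tcf7 F/F:Vav1-Cre against Tcf7 +/+ (vertical axis) for the 8 genes tested in both tables, with standard errors as bars. Gzma, Gzmb and Prf1 lie above 0 on both axes, and Nkg7, Ctsw, Serpinb6b, Serpinb9 and Gzmc lie right of 0 and below it on the vertical axis, with Gzmc lowest at -1.86.

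Ratios of 2 members within a library do not depend on library scaling. In the Bcl11b table several overlapped among the 3 genotypes. The log2 ratio of Serpinb9 to Gzmb was -1.82 and -2.34 in D/N440K and -2.01 and -2.38 in +/N440K, against -1.76 and -2.22 in Bcl11b +/+, overlapping throughout. Likewise the log2 ratio of Gzma to Gzmb was 0.69 and 0.37 in D/N440K and 0.29 and 0.54 in +/N440K, against 0.58 and 0.16 in Bcl11b +/+. Ratios to perforin did not overlap between the mutants. They all share Prf1, which was not called between the mutants (edgeR adjusted p = 0.2942). Serpinb6b to Gzma was without overlap there too (difference of means -0.24). The log2 ratio of Gzma to Prf1 was 3.13 and 3.28 in D/N440K, against 3.61 and 3.81 in +/N440K. That of Gzmb to Prf1 was 2.44 and 2.92 in D/N440K, against 3.32 and 3.27 in +/N440K. Neither pair of mutant groups overlapped, and the exact permutation test of 2 libraries against 2 gave p = 0.333, the smallest it can give. In Bcl11b +/+ the ratio to Prf1 was 3.93 and 2.88 for Gzma and 3.34 and 2.72 for Gzmb, overlapping each mutant group. The log2 ratio of Serpinb6b to Gzma was -2.50 and -2.40 in D/N440K, against -2.11 and -2.16 in Bcl11b +/+, also without overlap (exact permutation p = 0.333). Ctsw to Prf1 (difference of means -1.02) and Nkg7 to Prf1 (-1.01) did not overlap in that comparison either, and the other ratios did.

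Of the 9 ratios, 7 did not overlap between the groups of the Tcf7 table. These 7 are not independent, since those of Ifng, Ctsw and Nkg7 share Prf1 and those of Gzmc, Serpinb9 and Gzma share Gzmb. The share of other gene pairs without overlap was not taken. Of single tested genes, 24.1% lay lower and 24.7% higher without overlap. The log2 ratio of Gzmc to Gzmb was -3.00, -3.58 and -2.71 in F/F:Vav1-Cre, against -1.41 and -0.08 in Tcf7 +/+. The inhibitor-to-granzyme ratios were lower too, with Serpinb9 to Gzmb at -2.63, -2.85 and -2.66 in F/F:Vav1-Cre, against -1.61 and -1.01 in Tcf7 +/+. Serpinb6b to Gzma stood at -2.79, -2.47 and -2.88 in F/F:Vav1-Cre, against -1.79 and -1.90 in Tcf7 +/+. For both inhibitors every F/F:Vav1-Cre library lay below every control. Ifng to Prf1 was -3.12, -2.85 and -3.71 in F/F:Vav1-Cre, against -1.22 and -0.30 in Tcf7 +/+. The differences of the group means were -2.35 for Gzmc to Gzmb, -1.40 for Serpinb9 to Gzmb, -0.87 for Serpinb6b to Gzma and -2.46 for Ifng to Prf1. Ctsw to Prf1 (-1.27), Nkg7 to Prf1 (-1.03) and Gzma to Gzmb (-0.37) were also without overlap. Each of these 7 had an exact two-sided permutation p of 0.1, the smallest that 3 libraries against 2 can give, and 0.514 after Benjamini-Hochberg adjustment over the 36 ratio tests. Gzma to Prf1 and Gzmb to Prf1 overlapped between the groups.

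**Figure D4:**
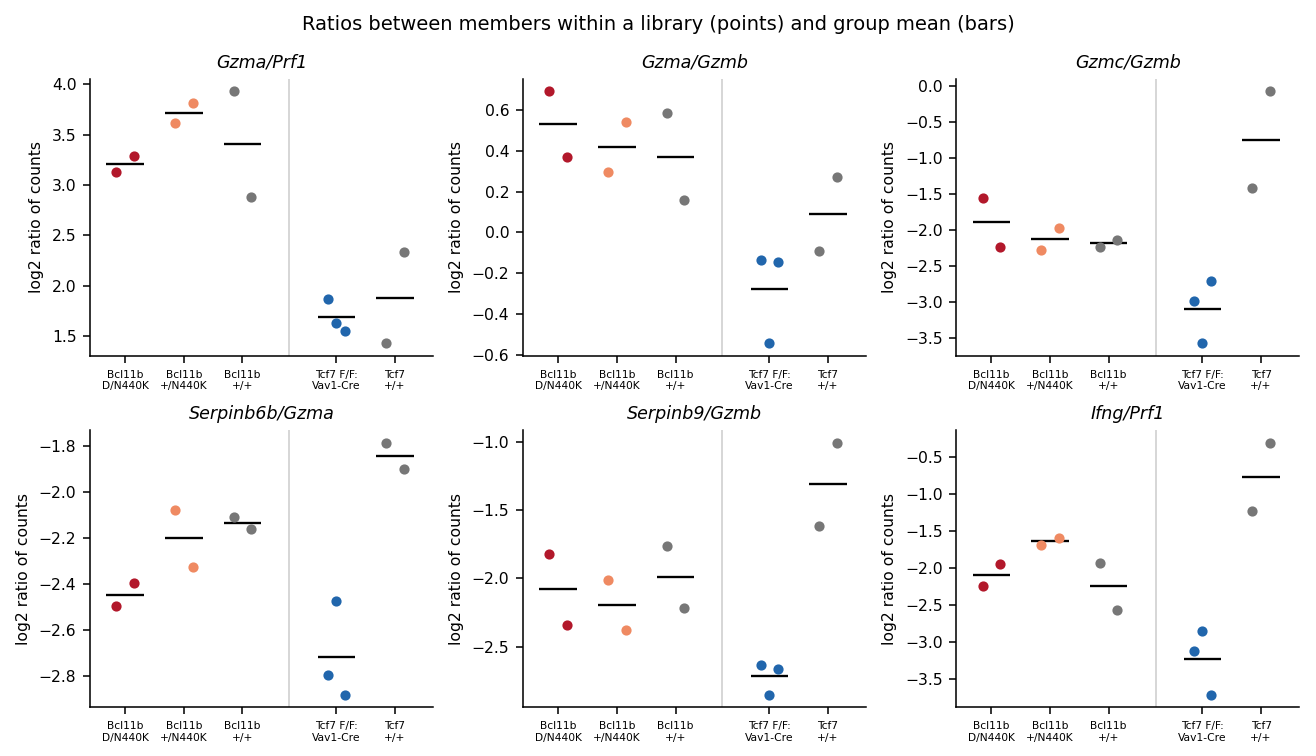
Log2 ratio of 2 members' counts within each library (points) with the group mean (bar), Bcl11b table left and Tcf7 table right of the grey line in each panel. Gzmc to Gzmb, both serpin ratios and Ifng to Prf1 have all 3 Tcf7 F/F:Vav1-Cre libraries below both Tcf7 +/+ libraries, while Serpinb9 to Gzmb and Gzma to Gzmb overlap among the 3 Bcl11b genotypes.

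Levels can be compared between genes once divided by exon length. In CPM per kb of merged exons, Nkg7 was first in D/N440K (485 ± 45.3, SD, n = 2), +/N440K (449 ± 35.3) and Bcl11b +/+ (343 ± 17.1), and Ifng was last in each (7.17 ± 0.142, 5.88 ± 0.301 and 2.07 ± 0.696). Gzma came next after Nkg7 in D/N440K (382 ± 32.6 CPM per kb) and in +/N440K (327 ± 34.4), while in Bcl11b +/+ Gzma (153 ± 9.66) and Ctsw (161 ± 3.41) overlapped. Prf1 was below all 3 granzymes in the Bcl11b table, at 16.0 ± 2.63 CPM per kb in D/N440K, 9.51 ± 0.0531 in +/N440K and 5.96 ± 3.39 in Bcl11b +/+. In F/F:Vav1-Cre Prf1 (25.0 ± 2.05 CPM per kb, n = 3) overlapped Gzmc (33.2 ± 7.45). In F/F:Vav1-Cre the order began with Gzma (208 ± 30.6 CPM per kb, n = 3), Gzmb (176 ± 17.5) and Nkg7 (165 ± 21.2), whose neighbours overlapped in that order. In Tcf7 +/+ it began with Nkg7 (259 ± 52.7, n = 2), Gzma (182 ± 3.92) and Ctsw (154 ± 20.9). Ifng was last in F/F:Vav1-Cre (5.20 ± 1.18) but stood with Serpinb6b, Prf1 and Serpinb9 in Tcf7 +/+ (22.4 ± 0.303, beside 22.4 ± 1.76, 20.2 ± 9.09 and 19.8 ± 1.94 CPM per kb).

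The genes most like a member across the 11 libraries were ranked by Pearson r of log2 CPM after each table's mean was subtracted, over genes tested in both tables. The libraries of a group share its genotype, so r mostly follows group differences and is given as a description. For Gzma they were Efhd2 (0.966), Parp8 (0.965) and Fut7 (0.951). For Gzmb they were Reep5 (0.967), Cd44 (0.957) and B930086L07Rik (0.955). Prf1 was closest to Ralb (0.972), Otulin (0.962) and Atg101 (0.943), and Ifng to Btbd11 (0.986), Ybx3 (0.977) and Ugcg (0.976). Among the members, r was 0.79 to 0.88 between Gzma, Gzmb and Prf1, 0.95 between Ctsw and Ifng and 0.93 between Serpinb6b and Serpinb9. The low r of Gzmb with Ctsw (0.12) and with Ifng (0.17) joins opposite patterns. Over the 6 Bcl11b libraries these r were 0.94 and 0.99, while in the Tcf7 table Gzmb was higher and Ctsw and Ifng were lower in F/F:Vav1-Cre.

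Other genes of the pathway were read from lists of known roles. None of the 7 other granzymes passed the count filter in either table. Gzmf had 4, 5 and 11 counts in libraries labelled Tcf7 F/F:Vav1-Cre, against 0 and 0 in Tcf7 +/+. Of 9 genes of granule content and protease maturation, 0 were called in D/N440K against Bcl11b +/+ (edgeR, median log2 fold change 0.05), 0 in the Tcf7 comparison (0.03) and 1 in +/N440K, Ctsh, a cathepsin that activates progranzyme B, which fell (-1.03, edgeR adjusted p = 0.01757). Of 14 tested exocytosis genes, 2 rose in D/N440K and 12 were not called, and in +/N440K 3 rose, 1 fell and 10 were not called. The ones that rose in both were the synaptotagmin-like Rab27 effectors Sytl2 (0.99 in D/N440K and 0.70 in +/N440K) and Sytl3 (1.25 and 1.03). In the Tcf7 comparison Sytl2 fell (-1.34 ± 0.206, edgeR adjusted p = 0.0001305) and the other 13 were not called. Sytl2 stood at 59.8, 45.2 and 40.6 CPM in F/F:Vav1-Cre, against 96.9 and 146 CPM in Tcf7 +/+.

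Of 15 transcription factors known to act on these genes, 7 rose and 1 fell in D/N440K, and 5 rose and 1 fell in +/N440K. The T-box factor Eomes had 141 and 94.7 CPM in D/N440K and 79.2 and 73.0 CPM in +/N440K, against 17.4 and 25.7 CPM in Bcl11b +/+ (2.44 ± 0.218 and 1.79 ± 0.238 on the log2 scale). Tbx21, the T-box factor best known for driving Ifng, rose by 1.16 ± 0.115 in D/N440K and by 1.03 ± 0.116 in +/N440K, and Id2, an inhibitor of E proteins, rose by 1.00 ± 0.0857 and 0.81 ± 0.0867. In the Tcf7 comparison 5 rose, 4 fell and 6 were not called. Eomes had 3.23, 6.78 and 3.89 CPM in F/F:Vav1-Cre, against 34.9 and 17.5 CPM in Tcf7 +/+ (-2.44 ± 0.395, edgeR adjusted p = 0.0001971). Tbx21 had 38.0, 35.6 and 35.6 CPM in F/F:Vav1-Cre, against 108 and 81.2 CPM in Tcf7 +/+ (-1.38 ± 0.193, edgeR adjusted p = 5.088e-05). Stat4 (-1.33 ± 0.245) and Zfp683 (-1.89 ± 0.265) were the others that fell. On the higher side, Runx3 had a mean of 516 CPM in F/F:Vav1-Cre, against 367 CPM in Tcf7 +/+. The mean of Id2 was 445 CPM in F/F:Vav1-Cre, against 274 CPM in Tcf7 +/+. Eomes and Tbx21, like Xcl1, are also among the NK markers above.

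On the receiving side of interferon gamma, 12 genes were tested. In D/N440K and in +/N440K alike, the receptor chains Ifngr1 (-0.57 and -0.58) and Ifngr2 (-0.94 and -0.83) fell and the response gene Igtp rose (0.51 and 0.52), with 9 not called in each. In libraries labelled Tcf7 F/F:Vav1-Cre, where Ifng was lower, 5 of 12 rose and 2 fell. Of all tested genes, 12.0% were called higher and 11.1% lower there. The receptor chain Ifngr1 had a mean of 291 CPM in F/F:Vav1-Cre, against 383 CPM in Tcf7 +/+. The mean of Jak1 was 379 CPM in F/F:Vav1-Cre, against 515 CPM in Tcf7 +/+. Cxcl10, a chemokine induced by interferons, had 78.4, 59.9 and 97.4 CPM in F/F:Vav1-Cre, against 15.8 and 9.58 CPM in Tcf7 +/+ (2.62 ± 0.284, edgeR adjusted p = 2.805e-06). Ifngr2 (1.07 ± 0.163), Socs1, a feedback inhibitor (1.36 ± 0.221), and Igtp (1.08 ± 0.153) also rose.

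Among 5 death ligands, Tnfsf10 (TRAIL) rose in D/N440K (0.79 ± 0.101) and +/N440K (0.57 ± 0.103) and fell in F/F:Vav1-Cre (-0.65 ± 0.153, edgeR adjusted p = 0.005056). Lta had 105, 119.8 and 124 CPM in F/F:Vav1-Cre, against 19.2 and 6.20 CPM in Tcf7 +/+ (3.19 ± 0.288), and Tnf rose by 1.85 ± 0.200 there. Lta also rose in D/N440K (1.01 ± 0.263, edgeR adjusted p = 0.005776). Of 8 NK chemokines and cytokines 3 were tested in the Bcl11b table, where Ccl5 (0.66 in D/N440K and 0.60 in +/N440K) and Xcl1 (0.93 and 0.82) rose. Among the 6 tested in the Tcf7 table, Xcl1 was lower (-0.68 ± 0.195) and Csf2 was higher (3.63 ± 0.607, edgeR adjusted p = 0.0002292). Of 11 other clade B serpins 3 were tested in the Tcf7 table, where Serpinb1a, an inhibitor of neutrophil proteases, rose (0.87 ± 0.188) and Serpinb9b fell (-1.94 ± 0.549, edgeR adjusted p = 0.01457), and 0 of 2 tested were called in the Bcl11b table.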

How the data were processed

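RNA-seq libraries of sorted thymocytes were made by a modified RamDA-seq method with Tn5 and PCR, per the labels' protocols. The count tables hold raw whole-number counts per Ensembl gene that the authors deposited. The tools named in the submitters' processing notes are STAR 2.7.3a, HTSeq 0.11.2, fastp 0.20.0, Picard 2.21.1, SAMtools 1.9 and edgeR, with the build GRCm38. The annotation release and strand of counting are not given in the sources used here. The CPM tables the authors deposited equal counts divided by library total times TMM factor. Of their values, 100% gave back whole counts within 0.001, equal to the count table. They list the 10910 and 12366 genes that filterByExpr kept here. A count test on the recovered reads thus repeats the main input and had to give the same calls. These were 1101, 1353 and 58 genes for +/N440K, D/N440K and their difference and 2863 for Tcf7. Ifng is in both count tables and only in the Tcf7 CPM table.

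Here each table was filtered (filterByExpr, minimum count 10), normalised by TMM and fitted with edgeR 4.0.16's quasi-likelihood test in R 4.3.3, two-sided, with a call at a Benjamini-Hochberg adjusted p under 0.05 over all genes of the table. All groups of a table shared 1 dispersion trend, with 3 residual degrees of freedom. Each SE is the unshrunken log2 fold change divided by the square root of F. Printed CPM use the TMM-scaled library total, for untested genes too. The biological coefficient of variation was 0.0445 for Bcl11b libraries and 0.122 for Tcf7 libraries. Ratios used counts plus 0.5 and exact permutation tests. The 95% intervals of count ratios are exact and cover counting error only, since PCR reads are not independent molecules. GENCODE M21 gave coordinates and exon lengths, with 53620 of 53801 and 55144 of 55471 identifiers matched, and RefSeq (GRCm38.p6) the promoters. The edgeR fit was tested on simulated data for the comparison of D/N440K with Bcl11b +/+ (10630 genes) and for that in the Tcf7 table (12047 genes). It recovered 71% and 55% of 2-fold changes and 94% and 95% of 4-fold changes, and 2.37% and 11.2% of its calls were false, the second above the 5% aimed at. Each rate came from a single simulated data set with few changed genes, so the false share need not hold for the real comparisons. The difference of effects was not simulated. Python 3.11.15 and matplotlib 3.10.9 drew the figures.

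Same-numbered replicates were not treated as pairs. Alternatives were other normalizations and filters, DESeq2 1.42.0, limma 3.58.1 (voom, and log2 of the authors' CPM plus 1), only the groups compared, a replicate block and each library left out. Where that left a lone library, it was assumed to vary like the other groups. The members and gene lists were chosen with earlier results of these data known. The text names the 9 members, the targeted genes and sort markers, the 3 genes most like Gzma, Gzmb, Prf1 and Ifng, and from each pathway list at most the 4 called genes with the smallest p per comparison. Gzmf, Runx3 and the values of Id2, Ifngr1 and Jak1 in the Tcf7 comparison were chosen after the values were seen. Protein sequences were not used here.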

Additional observations from a re-analysis of the deposited data

Results flagged for a closer look

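The difference between the effect of Bcl11b D/N440K (against Bcl11b +/+, postnatal day 0) and the effect of the label Tcf7 F/F:Vav1-Cre (against Tcf7 +/+, postnatal day 7) passed an interaction test in edgeR for 7 members. On the log2 scale it was 3.83 for Ifng, 3.30 for Gzmc, 1.95 for Serpinb9, 1.70 for Serpinb6b, 1.38 for Ctsw, 1.16 for Nkg7 and 1.13 for Gzma, each positive where the D/N440K effect was the higher one. For Ifng the D/N440K side rests on 11 and 9 counts, against 2 and 4 counts in Bcl11b +/+. It failed the count filter there and passed only with the Tcf7 libraries added, which hold its highest counts. Its difference is therefore a description only. Age, table and genotype cannot be told apart in this difference. No group had the 4 libraries needed to look for a single deviating library.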

How the results depend on the processing

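Among values of single members under alternatives, 596 kept their direction and side of the threshold, 22 were no longer called, 8 became called and 4 changed sign. The 596 include the fit on reads recovered from the authors' CPM, which repeats the main input and could not differ. The sign changed for Serpinb6b between D/N440K and +/N440K (0.0045 without +/N440K replicate 1 and 0.016 without D/N440K replicate 2, in a range of -0.060 to 0.016), for Ctsw there (-0.0077 without +/N440K replicate 2, up to 0.154) and for Prf1 in the Tcf7 table (-0.089 without Tcf7 +/+ replicate 2, against 0.86 and a call without Tcf7 +/+ replicate 1). With DESeq2 the genes called were 312 in +/N440K against Bcl11b +/+ (1101 with edgeR), 460 in D/N440K (1353), 2 between the mutants (58), 1819 in the Tcf7 comparison (2863) and 813 for the difference of effects (1407), and 3 members in place of 7 were higher in +/N440K. Without the count filter 91 genes were called between the mutants, 1606 and no higher member (0 of 9) in the Tcf7 comparison. Leaving out 1 library gave 726 to 945 genes in +/N440K against Bcl11b +/+, 25 to 63 between the mutants, 1700 to 4612 with 0 to 2 higher members in the Tcf7 comparison, and 861 to 2642 for the difference. The extremes of the last 2 were reached without Tcf7 +/+ replicate 1 (4612 and 2642), without F/F:Vav1-Cre replicate 3 (1700) and without Bcl11b +/+ replicate 1 (861). The cause was not tested. Of 225 differences of log2 ratios under alternatives, 25 changed sign, in 18 of the 36 ratio comparisons, all with overlapping groups; where groups do not overlap, leaving out a library cannot change the sign. The ratio of Gzma to Prf1 ran from -0.65 to 0.26 in the Tcf7 comparison and from -0.21 to 0.84 in +/N440K, and that of Gzmb to Prf1 from -0.10 to 0.44 in the Tcf7 comparison. Same-numbered samples did not deviate together (r -0.11 to 0.07). With a replicate block 37 genes were called between the mutants, and the Tcf7 calls of Nkg7 (edgeR adjusted p = 0.05121) and Serpinb6b (edgeR adjusted p = 0.1505) were lost, with no other member call changed. Depth limits Ifng most, with 2 to 11 counts per library in the Bcl11b table. In a single simulation of the Tcf7 comparison with few changed genes, 11.2% of calls were false.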
